A study of Homo sapiens with 4 samples.

Results

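The EVEN and ODD pull-downs used 2 different sets of biotinylated antisense probes, both directed at exon 2 of HIPK3, the exon that forms circHIPK3. The miRNAs that came with each set were compared library against library. The compared miRNAs were those with at least 20 reads in EVEN, in ODD or in both, which left 203 of the 2656 mature miRNAs listed. The cells were RD, a human cell line long established from an embryonal rhabdomyosarcoma, which is a malignancy of skeletal muscle character, and they received no treatment before lysis. A pull-down with probes against the bacterial LacZ mRNA served as control, and the lysate itself was sequenced as input. Each of the 4 groups was a single library from 1 biological replicate, so no difference below has a replicate check and none carries a p-value. The sources used here do not say how the probes were divided between the sets, and the probe sequences and the recovery of circHIPK3 itself were not analysed here. Exon 2 is also part of the linear HIPK3 transcript, so RNA bound to either form could be recovered by either set.

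A mature miRNA is a short RNA cut from a hairpin precursor. It is loaded into an Argonaute protein, and its seed, bases 2 to 8 from the 5′ end, directs it to complementary sites in other RNAs. Each hairpin can yield a 5p and a 3p product from its opposite arms, which differ in sequence although they come from the same precursor. CircHIPK3 is an abundant circular RNA formed by back-splicing of exon 2 and has been described as a sponge that holds several miRNAs. Probe sets that tile different stretches of a target are used side by side in such pull-downs, so that a signal can be read in both.

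The sequences of the miRNAs that differed most are shown first, 5′ to 3′ from the RefSeq table for GRCh38.p14, with the seed in capitals. Of the 203 miRNAs, 186 had a mature sequence in that table. Those below had the 12 highest EVEN values relative to ODD.

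miR-1914-5p: cCCUGUGCccggcccacuucug
miR-18a-5p: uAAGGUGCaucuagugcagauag
miR-489-3p: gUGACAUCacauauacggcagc
miR-188-3p: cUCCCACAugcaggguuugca
miR-509-3p: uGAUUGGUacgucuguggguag
let-7e-3p: cUAUACGGccuccuagcuuucc
miR-365b-5p: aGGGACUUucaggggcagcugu
miR-421: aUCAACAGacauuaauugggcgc
miR-133b: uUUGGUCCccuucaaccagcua
miR-7706: uGAAGCGCcugugcucugccgaga
miR-432-5p: uCUUGGAGuaggucauugggugg
miR-133a-3p: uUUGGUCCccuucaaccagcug

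These were the miRNAs with the highest ODD values relative to EVEN, apart from miR-503-5p, which ranked just ahead of miR-214-3p and is shown in the next set.

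miR-510-5p: uACUCAGGagaguggcaaucac
miR-1250-5p: aCGGUGCUggauguggccuuu
miR-509-3-5p: uACUGCAGacguggcaaucaug
miR-17-3p: aCUGCAGUgaaggcacuuguag
miR-493-5p: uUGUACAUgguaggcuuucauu
miR-550a-3p: uGUCUUACucccucaggcacau
miR-184: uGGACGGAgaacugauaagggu
miR-10a-5p: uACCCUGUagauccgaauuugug
miR-214-3p: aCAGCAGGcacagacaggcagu

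The 8 members that hold the letters AGCAGC are shown with those letters in capitals, because 7 of them were higher in ODD.

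miR-191-5p: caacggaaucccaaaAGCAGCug
miR-107: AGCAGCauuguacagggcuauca
miR-103a-3p: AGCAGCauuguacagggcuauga
miR-424-5p: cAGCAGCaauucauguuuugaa
miR-16-5p: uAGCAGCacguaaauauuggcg
miR-15b-5p: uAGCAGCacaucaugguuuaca
miR-15a-5p: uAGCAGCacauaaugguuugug
miR-503-5p: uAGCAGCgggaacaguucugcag

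The last set, again with the seed in capitals, holds the other arm of hairpins whose arms parted and near-identical relatives that parted.

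miR-17-5p: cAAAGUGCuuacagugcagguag
miR-15b-3p: cGAAUCAUuauuugcugcucua
let-7a-5p: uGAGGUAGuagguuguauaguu
let-7g-5p: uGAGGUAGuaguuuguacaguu
miR-29a-3p: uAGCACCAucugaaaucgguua
miR-29c-3p: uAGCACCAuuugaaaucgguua
miR-365a-5p: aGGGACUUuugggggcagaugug

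EVEN was the shallower of the libraries compared. It held 98950 miRNA reads, and ODD held 426450, which is 4.31 times as many. LacZ held 425395 reads and the input 2987858. At these depths a count of 0, taken as up to 3 reads, allows 30.3 CPM (the read share scaled to a common library size) in EVEN and 7.03 CPM in ODD. The 203 members took 99.1% of the EVEN reads and 99.6% of the ODD reads. The skeletal muscle markers miR-1-3p, miR-133a-3p, miR-133b and miR-206 all had reads in all 4 libraries and summed to 6.21% of the input, 10.4% of EVEN, 3.50% of ODD and 6.70% of LacZ. Reads are shares of a library, so a larger share of a miRNA cannot be told apart from a smaller share of the others.

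Most miRNAs took a similar or moderately larger share of the EVEN library, and a smaller number stood far apart in either direction. The ratio used throughout is log2 of EVEN over ODD, computed from each count plus 0.5 divided by the library total, and positive values are higher in EVEN. By this ratio 77 of the 203 members were at least 2-fold higher in EVEN, which is 37.9%, and 37 were at least 2-fold higher in ODD, which is 18.2%. The remaining 89 lay less than 2-fold apart. The median ratio was 0.64, and the middle of the distribution, between its quartiles, ran from -0.29 to 1.33. Of the members, 135 had at least 20 reads in both libraries, 8 only in EVEN and 60 only in ODD. The 8 that entered through EVEN alone had to be higher in EVEN, since a count under 20 in the deeper ODD library is a smaller share. Of the 37 members higher in ODD, 21 reached 20 reads in ODD alone. Among the 60 that entered through ODD alone, 7 were higher in EVEN.

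**Figure D1:**
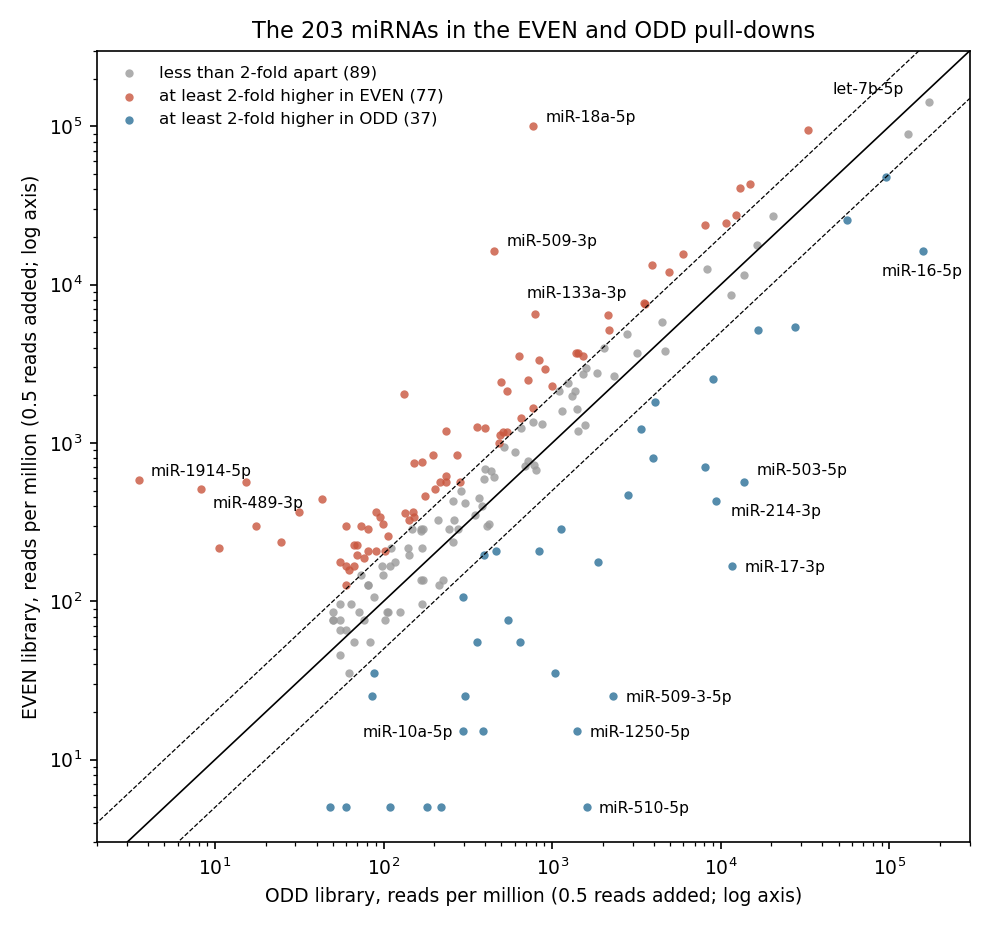
Each point is 1 of the 203 miRNAs, placed by its CPM in ODD (horizontal, log axis) and in EVEN (vertical, log axis), with the solid line at equal values and the dashed lines at 2-fold. The 77 red points are at least 2-fold higher in EVEN and the 37 blue points at least 2-fold higher in ODD; miR-18a-5p stands alone at 9897 EVEN reads, and miR-16-5p is the most abundant member on the ODD side.

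The balance of the counts turned with the scaling. TMM factors lowered every ratio by 1.02 and gave 20 members higher in EVEN and 64 higher in ODD. Median-of-ratios size factors gave 19 and 64. Totals taken without the 14 miRNAs that were among the 10 most abundant of EVEN or of ODD gave 42 and 42. Centring the ratios on their own median gave 34 higher in EVEN (16.7%) and 48 higher in ODD (23.6%). Under all 5 scalings the same 19 members (9.36%) were at least 2-fold higher in EVEN and the same 37 (18.2%) at least 2-fold higher in ODD. Each alternative scaling lowered every ratio, so the 37 higher in ODD could not be lost. Values below are scaled to library totals, and every miRNA named as higher in ODD is among those 37. The 19 on the EVEN side end at miR-508-3p, with a ratio of 2.09, and EVEN values below it were under 2-fold in at least 1 of the scalings.

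**Figure D2:**
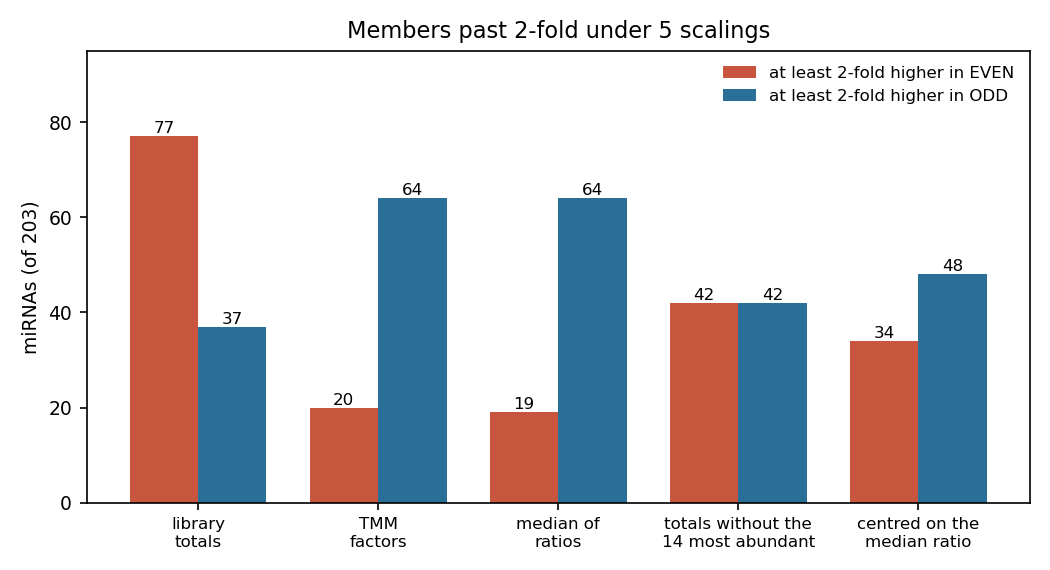
Bars give the number of the 203 members at least 2-fold higher in EVEN (red) or in ODD (blue) under each of 5 scalings. EVEN leads with 77 against 37 under library totals and trails with 20 against 64 under TMM factors.

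On the EVEN side, miR-18a-5p stood apart by its abundance. This miRNA comes from the MIR17HG transcript, the host of the miR-17-92 cluster known for driving proliferation, and its hairpin lies in an exon of that gene at chr13:91350751-91350821 on the plus strand of GRCh38. It had 9897 reads in EVEN, 329 in ODD, 819 in LacZ and 10907 in the input. These counts are 10.0% of all EVEN reads, 0.0771% of ODD, 0.193% of LacZ and 0.365% of the input, so that the EVEN library alone was high. The share was 130-fold higher in EVEN than in ODD, with a 95% counting interval of 116 to 145. Such intervals here are exact and cover counting error only. In the same cluster miR-17-5p, with 82 reads in EVEN, 116 in ODD, 549 in LacZ and 9012 in the input, had a ratio of 1.61, and miR-20a-5p, with 758 EVEN and 1501 ODD reads, one of 1.12. Both were far closer to equal than miR-18a-5p. For every 100 reads of miR-17-5p there were 12070 reads of miR-18a-5p in EVEN, 283.6 in ODD, 149.2 in LacZ and 121.03 in the input. The near-identical miR-18b-5p, below the count minimum, had 10 reads in EVEN, 0 in ODD, 1 in LacZ and 0 in the input.

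The other miRNAs at the EVEN end were mostly of low abundance. MiR-1914-5p had 57 reads in EVEN, 1 in ODD, 3 in LacZ and 2 in the input, a 246-fold higher share in EVEN than in ODD (42.4 to 9871). Its hairpin lies within an exon of UCKL1 at chr20:63941465-63941544 on the minus strand, and it was nearly unread outside EVEN. MiR-489-3p, from an intron of the calcitonin receptor gene CALCR and known in muscle stem cells, had 50 reads in EVEN, 3 in ODD, 11 in LacZ and 254 in the input (71.8-fold, 23.2 to 360). MiR-188-3p, from an intron of CLCN5 on the X chromosome, had 56 reads in EVEN, 6 in ODD, 37 in LacZ and 1010 in the input (40.2-fold, 17.4 to 114). For both, EVEN was the highest of the 4 libraries by share and ODD the lowest. MiR-421, processed from the FTX transcript, had 201, 56, 268 and 3003 reads in EVEN, ODD, LacZ and input, and a share 15.5-fold higher in EVEN (11.5 to 21.2). Let-7e-3p, the passenger strand of let-7e, had 21 reads in EVEN and 4 each in ODD and LacZ.

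MiR-509-3p had a different pattern across the libraries. It belongs to an X-linked group of hairpins known for expression in testis and is encoded by 3 hairpin copies. It had 1623 reads in EVEN, 192 in ODD, 4297 in LacZ and 1099 in the input. Its share was 1.64% of EVEN, 0.0450% of ODD, 1.01% of LacZ and 0.0368% of the input. LacZ and EVEN were thus both far above the input, and ODD was close to it. The share in EVEN was 36.4-fold that in ODD (31.4 to 42.5), and only 0.70 on the log2 scale above that in LacZ.

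The muscle miRNAs miR-133a-3p and miR-133b, which share a stretch of 21 bases and act in myogenic differentiation, were both higher in EVEN. MiR-133a-3p had 641 reads in EVEN, 338 in ODD, 1272 in LacZ and 14975 in the input, and its share was 8.17-fold higher in EVEN (7.15 to 9.35). MiR-133b had 36, 13, 57 and 3052 reads, and was 11.9-fold higher (6.18 to 24.5). The muscle miRNAs miR-206 and miR-1-3p, which share a seed, had smaller ratios. MiR-206 had 9431 reads in EVEN and 13964 in ODD, a ratio of 1.54, and miR-1-3p had 161 and 598, a ratio of 0.22. Over the muscle list, 5 of 6 members were at least 2-fold higher in EVEN, beside 37.9% of all members, and none in ODD, beside 18.2%, with a median of 1.65 beside 0.64 for all members. Under TMM factors 2 of the 6 were past 2-fold. Among the 5, miR-133b reached the count minimum in EVEN alone, which by itself placed it on the EVEN side.

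On the ODD side the members at the far end were close to absent from EVEN. MiR-510-5p, another member of the X-linked testis group, had 0 reads in EVEN, 682 in ODD, 12 in LacZ and 323 in the input. With the count of 0 set at 3 reads, its share was at least 52.7-fold higher in ODD. MiR-1250-5p, from an intron of the kinase gene AATK, had 1, 597, 17 and 165 reads in EVEN, ODD, LacZ and input (139-fold, 24.8 to 5480). MiR-509-3-5p had 2, 981, 5 and 134 reads (114-fold, 31.4 to 941). ODD was the highest of the 4 libraries by share for each of these, and EVEN and LacZ were both low. The miR-509-3 hairpin at chrX:147259652-147259726 thus gave a 5p product that was high in ODD, and its 3p product, which shares its sequence with other copies, was high in EVEN.

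MiR-17-3p combined a large difference with many reads. It is the product of the arm opposite miR-17-5p in the same MIR17HG cluster that holds miR-18a. It had 16 reads in EVEN, 4984 in ODD, 213 in LacZ and 2794 in the input, so ODD stood above all 3 other libraries. Its share was 72.3-fold higher in ODD than in EVEN (44.5 to 127). MiR-214-3p, from the DNM3OS transcript of mesenchymal cells, had 42, 3987, 473 and 2165 reads (22.03-fold, 16.3 to 30.6). MiR-184, an abundant miRNA of cornea and lens, had 3, 445, 17 and 18 reads (34.4-fold, 11.7 to 168). MiR-10a-5p, from the HOXB locus, had 1, 166, 1 and 16 reads (38.5-fold, 6.82 to 1530). ODD was the only pull-down with more than 1 read of it. MiR-1237-3p, a mirtron product from RPS6KA4, had 1, 126, 5 and 1 reads. MiR-493-5p, miR-550a-3p and miR-744-3p had no EVEN read and 93, 77 and 46 ODD reads, which bounds their shares at 7.19-fold, 5.96-fold and 3.56-fold higher in ODD at the least.

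**Figure D3:**
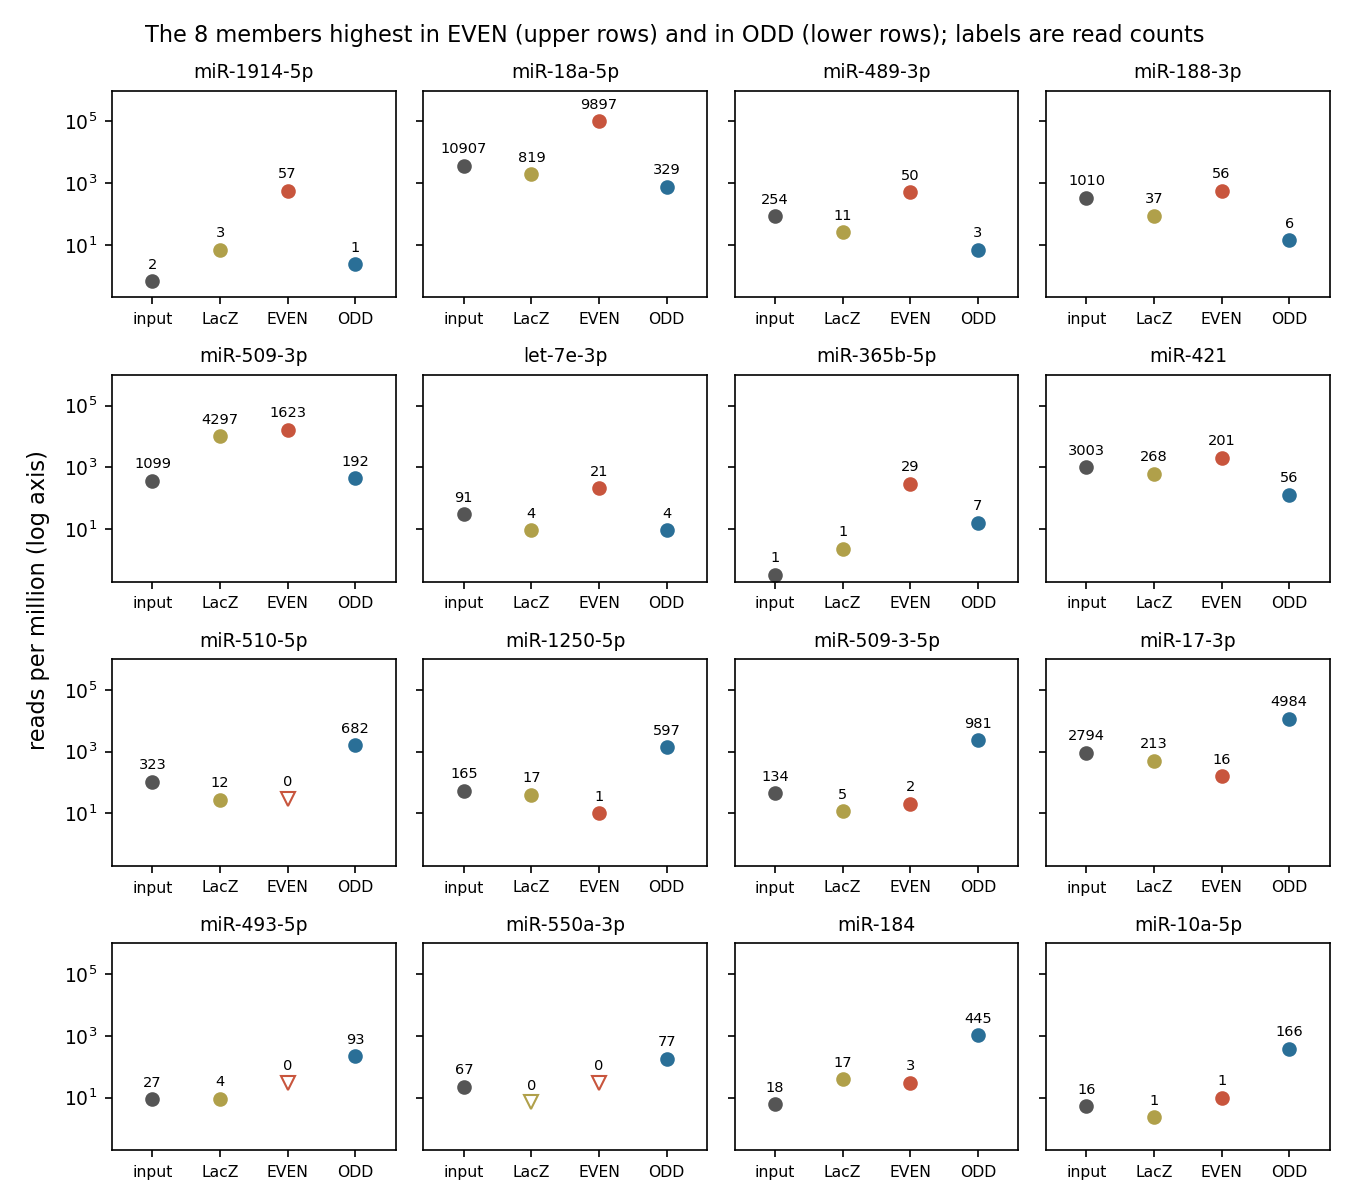
Each panel gives the CPM (log axis) of 1 miRNA in the input, LacZ, EVEN and ODD libraries, with the read count beside each point and an open triangle at the level allowed by 0 reads. In the upper rows EVEN is the highest point of each panel, as for miR-1914-5p with 57 reads against 1 in ODD, and in the lower rows ODD is, as for miR-17-3p with 4984 reads against 16 in EVEN.

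The 12 members at the EVEN end summed to 12.8% of EVEN, 0.229% of ODD, 1.61% of LacZ and 1.16% of the input, a sum in which miR-18a-5p alone is 10.0% of EVEN. The 12 at the ODD end summed to 0.123% of EVEN, 4.23% of ODD, 0.336% of LacZ and 0.549% of the input. All 8 members that reached 20 reads in EVEN alone were among the 12 at the EVEN end. At the ODD end, all but miR-503-5p and miR-214-3p reached 20 reads in ODD alone. Most members at both ends thus entered the comparison only through the library where they were high. In LacZ, 8 of the 12 EVEN-end members and 9 of the 12 ODD-end members had fewer than 100 reads. The matching count over all members was not made, so whether the ends were unusual in this was not tested. Members of all abundances contributed: among the 51 with the highest mean share, 22 were higher in EVEN and 13 in ODD, and among the 51 with the lowest, 14 and 8.

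All 4 measured members of the miR-15 and miR-16 family were higher in ODD, where 18.2% of all members were. These miRNAs share the seed AGCAGCA and are known to restrain the cell cycle and BCL2. MiR-16-5p, made from 2 hairpins in the genes DLEU2 and SMC4, had 1621 reads in EVEN, 67640 in ODD, 12285 in LacZ and 75357 in the input. Its share was 9.68-fold higher in ODD than in EVEN (9.22 to 10.2), and ODD was the highest of the 4 libraries. MiR-15b-5p had 69, 3425, 346 and 6307 reads in the same order, and was 11.5-fold higher in ODD (9.08 to 14.8). MiR-15a-5p had 5, 274, 72 and 1747 reads (12.7-fold, 5.38 to 39.5), and miR-424-5p had 7, 234, 145 and 4642 (7.76-fold, 3.71 to 19.5). Both of these reached 20 reads in ODD alone, so they entered the comparison through the library where they were high. All 4 measured members lay within 0.67 log2 units of each other, and together they took 1.72% of EVEN, 16.8% of ODD, 3.02% of LacZ and 2.95% of the input. MiR-195-5p and miR-497-5p of the same family had at most 1 read in either library.

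Relatives outside the seed family lay on the same side. MiR-503-5p, neighbour of miR-424 on the X chromosome and also linked to cell cycle arrest, had 56 reads in EVEN, 5860 in ODD, 672 in LacZ and 10679 in the input, and was 24.3-fold higher in ODD (18.7 to 32.2). MiR-103a-3p, a regulator of metabolism encoded in introns of PANK2 and PANK3, had 509, 7056, 3127 and 18931 reads (3.22-fold, 2.94 to 3.53). MiR-107, its relative in PANK1, had 19, 168, 57 and 677 reads and sat at the 2-fold mark with a ratio of -1.004. Like miR-15a-5p and miR-424-5p, miR-107 reached 20 reads in ODD alone. All 7 of these carry AGCAGC in the first bases, starting at base 1 in miR-103a-3p and miR-107 and at base 2 in the others, as the capitals show. The stretch was picked after its values were seen, from 39 stretches of 6 bases held by at least 5 members, so its ratio is a description. The 8 members with AGCAGC had a median ratio of -3.07, and the 178 with sequence but without it had a median of 0.64. The exception was miR-191-5p, where the stretch starts at base 16: it had 366 reads in EVEN and 593 in ODD, a ratio of 1.41. Among all 2351 human mature miRNAs of the reference table, 0.851% hold AGCAGC. The reverse complement, GCUGCU, is held by 3 members. Among them is miR-103b, the exact reverse complement of miR-103a-3p, with 178 EVEN and 1742 ODD reads and a ratio of -1.18. None of the other holders was higher in ODD. Without stated use of strand, reads of miR-103b and miR-103a-3p cannot be told apart. HIPK3 exon 2 itself holds AGCAGC 2 times and GCUGCU 0 times. The 8 members summed to 2.68% of EVEN, 19.99% of ODD, 4.35% of LacZ and 4.51% of the input.

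The let-7 family, regulators of differentiation with RAS and LIN28 among their targets, took a large part of both pull-downs and split within itself. Its 9 members summed to 37.7% of EVEN, 50.9% of ODD, 31.98% of LacZ and 23.99% of the input. Let-7b-5p was the most abundant miRNA of both libraries, with 14024 reads in EVEN and 72979 in ODD, and differed little (ratio -0.27). Let-7a-5p followed with 8906 and 55202 reads (ratio -0.52). Let-7f-5p with 4722 and 40874 reads, let-7i-5p with 2515 and 23901 and miR-98-5p with 120 and 1426 were at least 2-fold higher in ODD, at ratios of -1.01, -1.14 and -1.46. These 3 of 9 stand beside 18.2% of all members. Under TMM factors 7 of the 9 were at least 2-fold higher in ODD, beside 64 of all 203, and none in EVEN. When centred, 5 of the 9 were higher in ODD, beside 48 of all 203, and none in EVEN. The family's median ratio was -0.41 by library totals and -1.44 under TMM factors. By library totals, let-7g-5p and let-7e-5p were higher in EVEN. Let-7g-5p, with 2351 reads in EVEN and 3443 in ODD, passed 2-fold at a ratio of 1.56, and let-7e-5p, with 2665 and 8667, had one of 0.41 (1.33-fold, 1.27 to 1.38), which was -0.62 under TMM factors. For each 100 reads of let-7a-5p there were 26.4 reads of let-7g-5p in EVEN, 6.24 in ODD, 5.65 in LacZ and 12.1 in the input. Such ratios inside a library do not depend on its scaling, and here EVEN was the highest of the 4 libraries.

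The 2 arms of a hairpin, paired here by name, often differed between the probe sets. The arms of 1 hairpin come from 1 precursor, but a name can cover several hairpin copies. Both arms were members for 34 hairpins, and their ratios differed by a median of 1.76 log2 units. The difference was under 1 for 11 hairpins, at least 2 for 14 and at least 4 for 6. For 3 hairpins the arms lay at least 2-fold on opposite sides: miR-17, miR-331 and miR-15b. The share of a hairpin's reads that come from each arm needs no scaling between libraries. Of the reads of the miR-17 hairpin, 83.7% were 5p in EVEN (74.8 to 90.4, exact binomial interval), 2.27% in ODD (1.88 to 2.72), 72.0% in LacZ (68.7 to 75.2) and 76.3% in the input (75.6 to 77.1). ODD alone departed far from the other libraries, in which the 5p arm led. For miR-15b the 5p share was 55.2% in EVEN (46.0 to 64.1), 97.4% in ODD (96.8 to 97.9), 55.3% in LacZ (51.3 to 59.2) and 47.1% in the input. Here too EVEN and LacZ were alike within their intervals and ODD stood apart. MiR-331 had 0 reads of its 5p arm and 36 of its 3p arm in EVEN, where a count of 0 allows a 5p share of up to 8.33%, and it had 25 and 38 in ODD. Its 5p share was 39.7% in ODD (27.6 to 52.8), 1.19% in LacZ (0.145 to 4.23) and 2.43% in the input.

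For the miR-188 hairpin it was EVEN that stood apart. Its 5p arm took 33.3% of the hairpin's reads in EVEN (23.4 to 44.5), 85.0% in ODD (70.2 to 94.3), 88.5% in LacZ (84.5 to 91.8) and 81.3% in the input. The miR-18a hairpin had a ratio of 7.02 for its 5p arm and 1.51 for its 3p arm, which had 19 reads in EVEN and 29 in ODD, so the very high EVEN value belonged to the 5p product. In miR-503 the 5p arm had a ratio of -4.59 and the 3p arm, with 8 and 53 reads, one of -0.55. In miR-214 the 3p arm had a ratio of -4.44 and the 5p arm, with 13 and 96 reads, one of -0.73. The arms of miR-486, a muscle and red cell miRNA, differed by 0.12 and those of miR-378a, from the PPARGC1B gene, by 0.02. Centring on the median also left 3 hairpins with arms on opposite sides, namely miR-331, let-7d and let-7a.

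**Figure D4:**
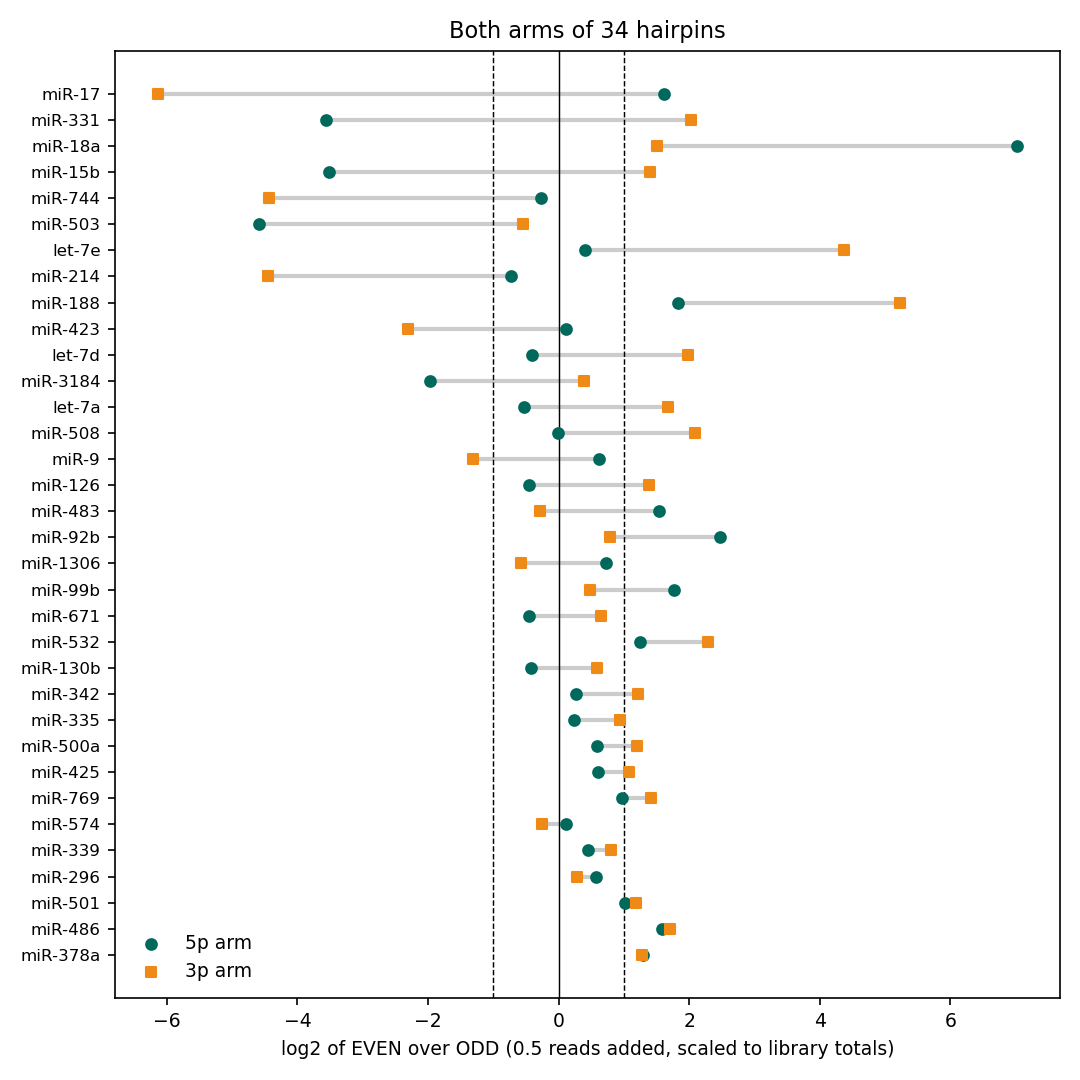
Each line is a hairpin with both arms among the members, with the 5p arm as a circle and the 3p arm as a square at its log2 ratio of EVEN over ODD (horizontal) and dashed lines at 2-fold. The arms of miR-17 lie 7.74 log2 units apart, and those at the bottom, such as miR-378a, coincide.

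MiRNAs with the same seed mostly had similar ratios. The members formed 22 groups of at least 2 that share bases 2 to 8, with 56 miRNAs in all. The lowest and highest ratios of a group were a median of 0.56 log2 units apart, 16 of the 22 groups spanned less than 1, and 4 spanned more than 2. MiR-17-5p, miR-20a-5p and miR-93-5p, which share the seed AAAGUGC, had ratios of 1.61, 1.12 and 1.64. MiR-148a-3p and miR-148b-3p had 0.88 and 0.84. The widest group was miR-365a-5p and miR-365b-5p: the former had 12 reads in EVEN and 91 in ODD, a ratio of -0.76, and the latter had 29 and 7, a ratio of 4.08. Their sequences, shown above, differ at 3 bases outside the seed. MiR-29c-3p had 0 reads in EVEN, 20 in ODD, 93 in LacZ and 1659 in the input. MiR-29a-3p, which differs from it at 1 base, had 8, 30, 242 and 4970, a ratio of 0.26; both are regulators of collagen genes, and with 0 EVEN reads the bound for miR-29c-3p is only 1.55-fold. The bound for miR-331-5p is 1.93-fold, so for these 2 of the 37 the 2-fold call rests on the added 0.5.

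Near-identical members were compared irrespective of the seed. Of the members with sequence, 38 pairs differed by at most 3 substitutions over the compared bases, with a median difference in ratio of 0.69. Among them, 26 pairs differed by less than 1 and 5 by at least 2. Most of the 38 pairs joined members of the let-7 family, so these counts mainly describe 1 family. The 5 included let-7g-5p paired with let-7i-5p, with let-7f-5p and with let-7a-5p. How reads matching several near-identical miRNAs were counted was not given in these sources. Members from opposite strands of 1 locus were also close. MiR-24-3p had 530 reads in EVEN and 11813 in ODD (ratio -2.37), and miR-3074-5p, encoded on the other strand of a miR-24 hairpin, had 250 and 3858 (ratio -1.84). MiR-423-3p, with 79 and 1686 reads, had a ratio of -2.30 and miR-3184-5p, with 28 and 481, one of -1.97, whereas miR-423-5p and miR-3184-3p had 0.11 and 0.39. These hairpins overlap on opposite strands, and without stated use of strand their reads cannot be told apart.

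**Figure D5:**
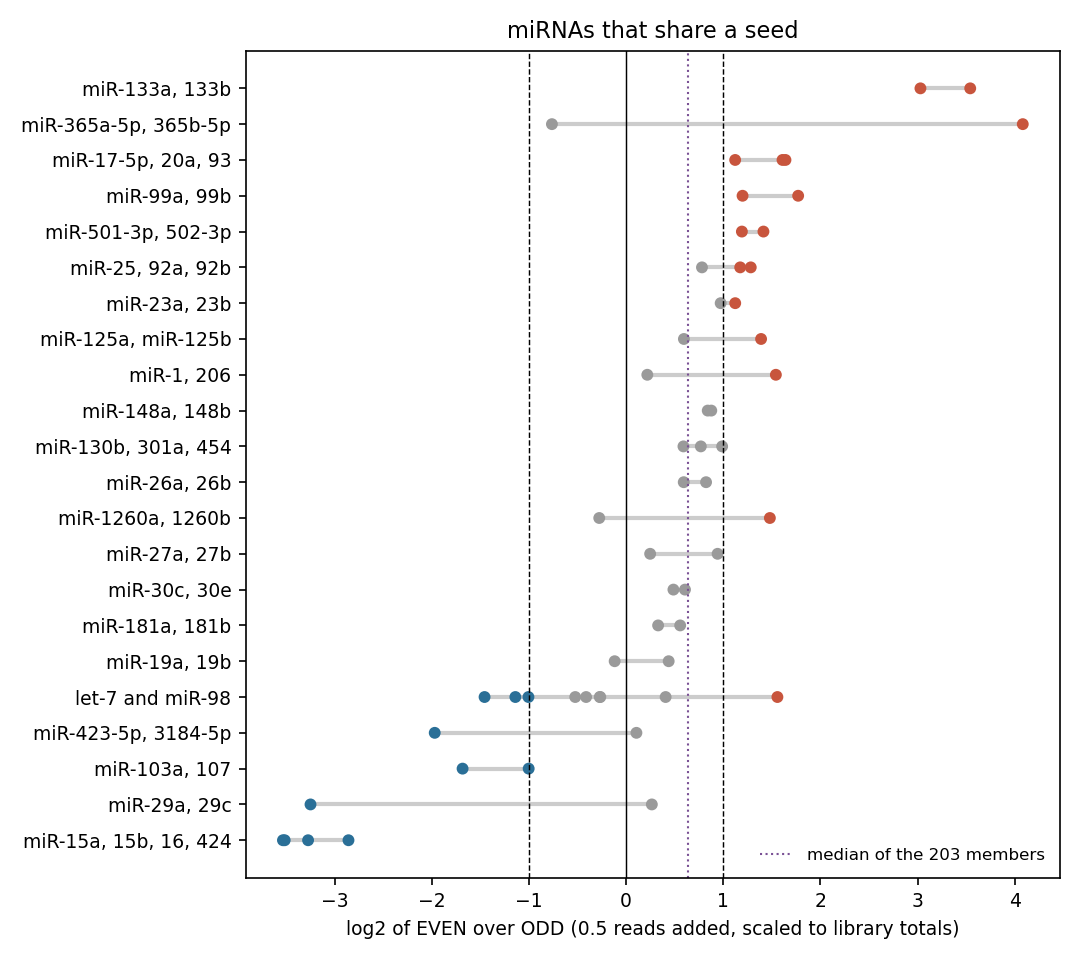
Each row holds the members that share a seed, each point being the log2 ratio of EVEN over ODD of 1 miRNA, with dashed lines at 2-fold and a dotted line at the median of all 203 members. The 4 miRNAs of the miR-15 and miR-16 group lie between -3.53 and -2.86, and the let-7 group runs from -1.46 to 1.56.

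Genomic clusters divided in different ways, and their counts are to be read beside the 37.9% of all members higher in EVEN and the 18.2% higher in ODD, or beside 20 and 64 of 203 under TMM factors. The miR-17-92 cluster had 9 members, 5 higher in EVEN and 1, miR-17-3p, higher in ODD, and its ratios ran from -6.13 to 7.02. The balance turned under TMM factors, with 1 higher in EVEN and 3 in ODD, and was even when centred, with 1 on each side. MiR-17-3p reached 20 reads in ODD alone. The paralogous clusters miR-106b-25 and miR-106a-363 had 3 members, 2 of them higher in EVEN and 0 under TMM factors; miR-93-5p, the most abundant with 4009 reads in EVEN and 5543 in ODD, had a ratio of 1.64. The X-linked cluster in CLCN5 had 11 members, 9 of them higher in EVEN (beside 37.9% of all members) and none in ODD. The median of the 11 was 1.20, and 2 of the 9 passed 2-fold under TMM factors. Among the 9, miR-188-3p reached 20 reads in EVEN alone, which by itself placed it on the EVEN side. MiR-532-5p, the cluster's most abundant member by these libraries, had 509 and 929 reads and a ratio of 1.24, and miR-660-5p had 194 and 558 and one of 0.59. The miR-506 to miR-514 group had 7 members, 4 higher in EVEN and 2 in ODD, or 2 and 3 under TMM factors, from -8.31 for miR-510-5p to 5.18 for miR-509-3p. The 2 higher in ODD, miR-510-5p and miR-509-3-5p, reached 20 reads in ODD alone, so they entered through the library where they were high. The imprinted 14q32 cluster had 4 members of 30 detected. MiR-432-5p (23 and 10 reads, ratio 3.27) and miR-134-5p (29 and 25, ratio 2.32) were higher in EVEN. MiR-493-5p and miR-409-3p (20 and 198, ratio -1.17) were higher in ODD. Of the 4, miR-432-5p reached 20 reads in EVEN alone and miR-493-5p in ODD alone.

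Among the smaller families, the miR-99, miR-100 and miR-125 list, which is known to accompany let-7 in the genome, had 3 of 4 members higher in EVEN, beside 37.9% of all members, with miR-99b-5p (1312 and 1657 reads) at 1.77 and miR-125b-5p (1246 and 3557 reads) at 0.59. None of the 4 was higher in EVEN under TMM factors, and 1 was when centred. The let-7 passenger strands had 3 members, all higher in EVEN beside the same 37.9% and 1 of them under TMM factors, at 1.68 for let-7a-3p, 1.98 for let-7d-3p and 4.36 for let-7e-3p. Neither the 2 members of miR-26 nor those of miR-181 and of the miR-148 and miR-152 list reached 2-fold in either direction, with medians of 0.71, 0.44 and 0.86. In the HOX list miR-196a-5p, with 125 and 152 reads, had a ratio of 1.83 and miR-10a-5p one of -4.69. The 12 members with late numbers, from miR-3074 upwards, which are later annotations, had 3 higher in EVEN (1 under TMM factors), led by miR-7706 (43 and 18 reads, ratio 3.34), and 4 higher in ODD (5 under TMM factors, and 18.2% of all members by library totals), led by miR-6735-5p (2 and 130 reads, ratio -3.60). Let-7e-3p and miR-7706 reached 20 reads in EVEN alone, and miR-6735-5p and miR-10a-5p did so in ODD alone.

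Some abundant miRNAs had nearly equal shares. Among members with at least 100 reads in both libraries the 5 closest to equal shares were miR-423-5p, miR-877-5p, miR-1-3p, miR-335-5p and miR-183-5p. MiR-423-5p had 1755 reads in EVEN and 7031 in ODD, a share 1.08-fold higher in EVEN (1.02 to 1.13). MiR-183-5p, a miRNA of sensory epithelia, had 128 and 664, 1.20-fold higher in ODD (0.995 to 1.47). MiR-21-5p, a growth-promoting miRNA raised in many tumours, had 2410 and 4602 reads, a share 2.26-fold higher in EVEN (2.15 to 2.37). It also stood above the control in both sets: its log2 ratio over LacZ, with 599 reads there, was 4.11 in EVEN and 2.94 in ODD, and the input had 6525 reads.

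MiRNAs that have been described as partners of circHIPK3 were few among the members. Of 15 listed, 13 had a read in EVEN or ODD and 6 were members, 1 of them at least 2-fold higher in EVEN and 1 in ODD, beside 37.9% and 18.2% of all members, with a median of 0.53 beside 0.64. The other 4 lay within 2-fold, as did 89 of the 203. MiR-421 was the member higher in EVEN, at 3.94, and miR-107 the member higher in ODD, at the threshold. MiR-7-5p, also the partner of the circular RNA CDR1as, had 295 reads in EVEN, 681 in ODD, 9503 in LacZ and 33324 in the input, a ratio of 0.90, and both probe sets were far below the control. MiR-149-5p with 130 and 371 reads, miR-584-5p with 7 and 23 and miR-29a-3p had ratios of 0.60, 0.46 and 0.26.

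Each probe set was also set against the LacZ control. The ratios over LacZ share that library and are given separately, and since the members were split by the same EVEN and ODD counts, the counts below partly restate that split. Over all 203 members, 34 were at least 2-fold above LacZ in EVEN and 79 at least 2-fold below it, and in ODD 40 were above and 112 below. The median log2 ratio over LacZ was -0.57 in EVEN and -1.32 in ODD. Of the 77 members higher in EVEN, 19 were above LacZ by this measure in EVEN and 13 below it, and in ODD 3 were above and 56 below. Of the 37 members higher in ODD, 26 were above LacZ in ODD and 3 below, while in EVEN 5 were above and 18 below. TMM factors raised the ODD ratios over LacZ by 1.29 and the EVEN ratios by 0.27. Of the 77, 22 were then at least 2-fold above LacZ in EVEN and 14 at least 2-fold below it in ODD. Over all 203 members, the counts became 42 above and 58 below in EVEN. In ODD they became 68 above and 41 below, so the balance in ODD turned with the scaling.

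Sequence features of the miRNAs had little relation to the ratio. Across the 186 members with sequence, no Spearman correlation of the ratio with length, GC content, the share of each base, or the longest stretch pairing with or identical to exon 2 exceeded 0.108 in size. GC content gave 0.03, the longest stretch that could pair with exon 2 gave 0.08 and the longest stretch identical to exon 2, to which an antisense probe would be complementary, gave -0.08. These miRNAs share their libraries and many share sequence, so the values are descriptions. HIPK3 exon 2 lies at chr11:33286413-33287511 on the plus strand of GRCh38, is 1099 nt long and has 42.0% GC. The median longest pairing stretch was 7 bases among all members, among those higher in EVEN and among those higher in ODD. An exact match to the seed's complement was found in exon 2 for 11 of 186 members (5.91%), for 2 of the 69 with sequence that were higher in EVEN (2.90%), for 3 of the 35 that were higher in ODD (8.57%) and for 174 of all 2351 reference miRNAs (7.40%). The 3 on the ODD side were miR-10a-5p, miR-17-3p and miR-1250-5p. MiR-17-3p could pair over 10 bases, AAGGCACUUG, with exon 2. Stretches of 10 bases also occurred among members higher in EVEN and among those less than 2-fold apart. The longest of any member, 11 bases, belonged to a member higher in EVEN.

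The extreme members had little sequence in common with each other. Among the 66 pairs of the 12 EVEN-end members with sequence, 3 shared a stretch of at least 7 bases, and the same count held for the 66 pairs at the ODD end. At the EVEN end these were the relatives miR-133a-3p and miR-133b with 21 bases, let-7e-3p and miR-489-3p with UAUACGGC, and miR-7706 and miR-1914-5p with CCUGUGC. At the ODD end miR-510-5p and miR-509-3-5p shared GUGGCAAUCA, miR-550a-3p and miR-214-3p shared CAGGCACA, and miR-509-3-5p and miR-17-3p shared ACUGCAG. These pairs were picked by their shared length, and the median longest shared stretch was 4 bases at both ends. CAGGCACA also lies in exon 2, within identical stretches of 10 bases for miR-550a-3p and 9 for miR-214-3p. Stretches of 10 bases identical to exon 2 also occurred in members higher in EVEN, such as miR-93-5p. Any link with the probes was not tested.

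At the count minimum the values rest on few reads. Just inside it lay let-7e-3p with 21 EVEN reads and miR-29c-3p with 20 ODD reads, along with miR-301a-3p (8 and 21 reads), miR-500a-5p (7 and 21) and miR-6724-5p (7 and 21). Among those just outside were miR-340-5p (4 and 19), miR-381-3p (18 and 13), miR-935 (18 and 7) and miR-509-5p (0 and 18). The last is a near copy of miR-509-3-5p, and had 17 reads in the input and 0 in LacZ.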

How the data were processed

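Small RNA was sequenced from the input and from the EVEN, ODD and LacZ pull-downs of RD cells with the QIAseq miRNA kit on an Illumina NovaSeq, per the labels' protocols. The authors deposited a table of raw counts and a table of CPM for mature miRNAs. The CPM were counts scaled to the library total. GRCh38 is the build in the submitters' processing notes. How reads were trimmed, aligned and assigned to strands or to similar miRNAs, and whether molecular identifiers were collapsed, are points not given in the sources used here. Uncollapsed copies would make the counting intervals too narrow.

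Ratios were log2 of (count + 0.5) over the library total, for miRNAs with at least 20 reads in EVEN or ODD, and were called at 2-fold. Folds are ratios of shares with a 95% exact conditional Clopper-Pearson interval, and counts of 0 were bounded at 3 reads. With 1 library a side there was no test. Other scalings came from edgeR 4.0.16 (TMM) and DESeq2 1.42.0 (median of ratios). Further alternatives were other totals, minimums, added constants and thresholds. The steps were tested on simulated data. Sequences and hairpin positions came from RefSeq on GRCh38.p14 and hosts and exon 2 from GENCODE 29 on GRCh38. Python 3.11.15 and R 4.3.3 were used.

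The members and the miRNA lists were chosen with earlier results of these data known. Named were the 12 highest and 12 lowest ratios, for either probe set the 10 most abundant, from every list the 2 most abundant and the most extreme member, opposite arms, the 5 most equal, neighbours of the minimum and the reported partners. Not every miRNA this rule names is described. MiR-103b lies outside the rule and was named because of its sequence. MiR-18b-5p, miR-20a-5p, miR-21-5p, miR-98-5p, miR-191-5p, miR-195-5p, miR-424-5p, miR-497-5p, miR-508-3p, miR-1247-5p and miR-3184-5p lie outside it and were chosen after their values were seen.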

Additional observations from a re-analysis of the deposited data

Results flagged for a closer look

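For 11 of the 182 members with at least 20 reads in LacZ, the share in 1 probe set was at least 2-fold above LacZ and the share in the other at least 2-fold below it. The opposite directions were not tested, since each group is 1 library and both ratios share LacZ. Above LacZ in EVEN and below it in ODD were 6 members, given as log2 over LacZ in EVEN and then in ODD. These were miR-18a-5p (5.70 and -1.32), miR-188-3p (2.70 and -2.53), miR-421 (1.69 and -2.25), miR-133b (1.45 and -2.09), miR-7706 (1.37 and -1.97) and miR-133a-3p (1.12 and -1.91). Below LacZ in EVEN and above it in ODD were 5 members: miR-17-3p (-1.59 and 4.54), miR-503-5p (-1.47 and 3.12), miR-214-3p (-1.37 and 3.07), miR-15a-5p (-1.62 and 1.92) and miR-1247-5p (-1.505 and 1.90). Under TMM factors all 11 still had opposite signs, but miR-18a-5p in ODD then lay at -0.03 of LacZ, and of the 6 only miR-188-3p stayed at least 2-fold below it, at -1.24.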

How the results depend on the processing

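Scaling decided the counts and the overall median. Members at least 2-fold higher in EVEN numbered 77 by library totals, 20 by TMM factors, 19 by median-of-ratios factors, 42 without the most abundant miRNAs and 34 when centred. Those higher in ODD numbered 37, 64, 64, 42 and 48. The median ratio of 0.64 turned to -0.38 with TMM and -0.40 with median-of-ratios factors, because both shift every ratio by the same amount, and was 0.20 without the most abundant miRNAs. Minimums of 1 read, 100 reads and 20 reads in both libraries gave 260, 39 and 62 members higher in EVEN, 83, 30 and 16 higher in ODD, and medians of 0.52, 0.51 and 0.93. These minimums test 660, 118 and 135 miRNAs. Adding 5 reads gave a median of 0.83. At 4-fold 22 were higher in EVEN and 25 in ODD, and with intervals excluding 1 the counts were 76 and 36. A minimum of the share of 20 EVEN reads, chosen after seeing the data, tested 160 and gave 70 and 31. Hairpins with arms on opposite sides numbered 3, and 1 with median-of-ratios factors, 11 at 1 read, and 1 each at 100 reads, at 20 reads in both and at 4-fold. Of 79 named miRNAs followed through these settings, none of the 58 with at least a 2-fold ratio changed sign. The alternative scalings could not have turned any of the 58. They shifted every ratio downwards, the largest shift being -1.04, and the lowest EVEN ratio among the 58 was 1.12. Of the 21 under 2-fold, 17 changed sign, all of them under TMM factors. Among 16 list medians, of the 9 past 2-fold only that of miR-506 to miR-514 changed sign, from 1.21 to -0.0079 at 1 read and -6.51 at 100 reads, as members entered or left. Of the 7 under 2-fold, 6 did under TMM factors: 14q32 (0.57 to -0.45), miR-181 (0.44 to -0.58), miR-26 (0.71 to -0.32), miR-148 and miR-152 (0.86 to -0.17), the reported partners (0.53 to -0.49) and the late numbers (0.32 to -0.70). Members with AGCAGC had medians from -4.11 to -2.45, and -3.40 without miR-103a-3p and miR-107. No paired analysis was possible because each group is 1 library. EVEN, the shallowest library, limits what can be seen on the ODD side, and no replicate bounds any difference.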
